A study of Homo sapiens with 6 samples.

Results

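The genes described here are 10 rows of the count table that code for myeloid immune receptors and the signalling chain they share. They are the C-type lectin receptors CLEC5A, CLEC7A and CLEC12A, the Fc gamma receptors FCGR1A, FCGR2A and FCGR2B, the transmembrane adaptors FCER1G, TYROBP and HCST, and the kinase SYK. The rows were taken by gene name, 1 row for each of the 10 names, out of 58884 rows. The cells were HL-60, a permanent RAS-mutated line from an acute myeloid leukemia, with cells that resemble promyelocytes. Cells of 3 libraries (numbered 3, 4 and 5) carried a lentiviral scrambled control shRNA, and cells of 3 libraries (numbered 1, 3 and 4) carried a lentiviral shRNA against EZH2, the methyltransferase of Polycomb repressive complex PRC2. All cells had been selected with puromycin, which was removed 2 days earlier, and all were kept for 24 hours in RPMI-1640 with 0.05% fetal bovine serum. The knockdown was partial, the hairpin sequence is not given in the sources used here, and no source says whether the libraries within a group stem from different transductions. The p-values therefore reflect the spread among these 6 libraries alone, and that spread may be technical.

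Receptors of this group bind sugars on microbes or the Fc part of IgG, and some of them lack a signalling motif and depend on an adaptor. CLEC5A pairs with TYROBP (DAP12) and HCST (DAP10), and FCGR1A pairs with FCER1G, the common Fc receptor gamma chain. FCGR2A and CLEC7A carry an activating motif in their own tails. Once a SRC-family kinase has phosphorylated the immunoreceptor tyrosine-based activation motifs (ITAM) of FCER1G, TYROBP or FCGR2A, SYK binds there and passes the signal on. HCST carries a different motif that binds PI3-kinase and the adaptor GRB2. FCGR2B and CLEC12A carry inhibitory motifs (ITIM), which recruit phosphatases and damp the signal.

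To show the DNA next to the genes that moved most clearly, and next to the 2 ITAM adaptors that went opposite ways, the RefSeq promoter windows of 5 genes are given here (GRCh38.p14). Each runs from 250 bases before to 50 bases after the annotated start, 5′ to 3′ on the strand of the gene. Capitals mark GAGGAA, the core of PU.1 sites (PU.1 is a myeloid transcription factor), and TTCNNNGAA, the core of STAT sites, each searched on both strands. The core of the interferon-stimulated response element was searched too and had no match in these 5 windows. No match overlapped another.
CLEC5A, chr7:141946925-141947224, minus strand: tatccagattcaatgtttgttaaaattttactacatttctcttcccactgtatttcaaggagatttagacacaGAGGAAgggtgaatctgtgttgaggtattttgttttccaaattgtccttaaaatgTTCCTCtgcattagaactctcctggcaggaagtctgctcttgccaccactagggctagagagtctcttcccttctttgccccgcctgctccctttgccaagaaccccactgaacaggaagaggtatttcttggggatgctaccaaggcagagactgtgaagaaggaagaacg
FCGR1A, chr1:149782444-149782743, plus strand: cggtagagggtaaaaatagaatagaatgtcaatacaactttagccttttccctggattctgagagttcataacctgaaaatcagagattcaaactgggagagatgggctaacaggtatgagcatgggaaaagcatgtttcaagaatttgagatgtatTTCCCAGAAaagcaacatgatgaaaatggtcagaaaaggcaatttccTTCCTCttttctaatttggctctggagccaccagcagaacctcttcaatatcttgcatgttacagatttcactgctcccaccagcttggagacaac
FCGR2A, chr1:161505207-161505506, plus strand: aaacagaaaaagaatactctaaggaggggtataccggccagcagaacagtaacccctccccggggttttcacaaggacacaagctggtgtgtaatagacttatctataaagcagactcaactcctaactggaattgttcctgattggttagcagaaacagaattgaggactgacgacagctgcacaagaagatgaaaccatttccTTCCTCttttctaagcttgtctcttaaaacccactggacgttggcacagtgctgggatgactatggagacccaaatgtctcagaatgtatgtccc
FCER1G, chr1:161215045-161215344, plus strand: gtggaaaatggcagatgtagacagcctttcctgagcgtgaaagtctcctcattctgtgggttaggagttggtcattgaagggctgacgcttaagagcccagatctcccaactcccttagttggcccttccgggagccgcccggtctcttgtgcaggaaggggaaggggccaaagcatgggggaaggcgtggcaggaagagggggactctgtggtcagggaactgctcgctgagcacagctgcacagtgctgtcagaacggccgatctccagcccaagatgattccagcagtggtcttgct
TYROBP, chr19:35908246-35908545, minus strand: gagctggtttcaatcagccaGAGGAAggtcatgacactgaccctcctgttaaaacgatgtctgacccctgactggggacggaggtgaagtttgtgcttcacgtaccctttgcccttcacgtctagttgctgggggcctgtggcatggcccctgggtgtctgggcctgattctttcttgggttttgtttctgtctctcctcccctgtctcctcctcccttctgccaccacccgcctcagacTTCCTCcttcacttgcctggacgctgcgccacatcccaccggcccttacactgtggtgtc

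A window was found for 9 of the 10 genes, 12 windows in all with the alternative starts of FCGR2B and SYK, and CLEC7A had none. GAGGAA was present in 9 of the 12 windows and 8 of the 9 genes, that is, in genes of either direction, while 27.9% of all 35116 windows held it. FCER1G was the gene without it. TTCNNNGAA was found 1 time in the FCGR1A window, 93 bases before the start, and 2 times in a window of FCGR2B, against 7.66% of all windows with at least 1 match. The interferon response core, in 3.57% of all windows, occurred among these genes in FCGR2B alone. The longest run shared by any pair of these genes was between FCGR1A and FCGR2A, 20 bases that began 52 and 51 bases before their starts and were found in no window of another gene:
shared run of FCGR1A and FCGR2A: atttccTTCCTCttttctaa
The capitals in that run are GAGGAA on the opposite strand. Such matches describe letters only and show no binding.

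Library totals lay between 39717343 and 85074624 counts, and levels are given as CPM, that is, counts relative to a TMM-adjusted library size. A library with 0 counts of a gene still allows up to 3 counts, which is between 0.0353 and 0.0759 CPM. EZH2 itself, the check of the labels, was at 149.5 ± 1.61 CPM in the controls and 79.98 ± 3.01 CPM with EZH2 shRNA (SD, n = 3 each). In all, 46.7% of 16859 genes tested passed the edgeR test at an adjusted p of 0.05, 23.8% higher and 22.9% lower, and the groups did not overlap for 54.9%. Of the 10 genes described here 9 passed the expression filter and were tested, CLEC7A being too low. All 9 of those passed the test, 5 higher (CLEC12A, FCGR1A, FCGR2A, FCGR2B and TYROBP) and 4 lower (CLEC5A, FCER1G, HCST and SYK), and the groups did not overlap for 8 of the 9, HCST being the exception. The filter keeps a gene that is high enough in a single group. FCGR2B, at 0.329, 0.115 and 0.0707 CPM in the controls, passed it through the EZH2 shRNA libraries, so its test could hardly give a fall. At least 2-fold changes were made by 4 of them, in a table where 4.36% of genes rose and 2.18% fell by that much. The promyelocyte genes MPO, AZU1, PRTN3 and CTSG were all expressed, with 8 such markers, nearly all of the sum being MPO, adding up to between 10163 and 10985 CPM in the controls and between 10311 and 10738 CPM with EZH2 shRNA, although ELANE, another gene of that list, had 5 and 27 counts over the groups. Of the 7 tested, PRTN3 (2.14 on the log2 scale), AZU1 (0.69) and CEBPE (0.38) were higher, CTSG (-0.22) was lower and MPO (-0.06) was not called.

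**Figure D1:**
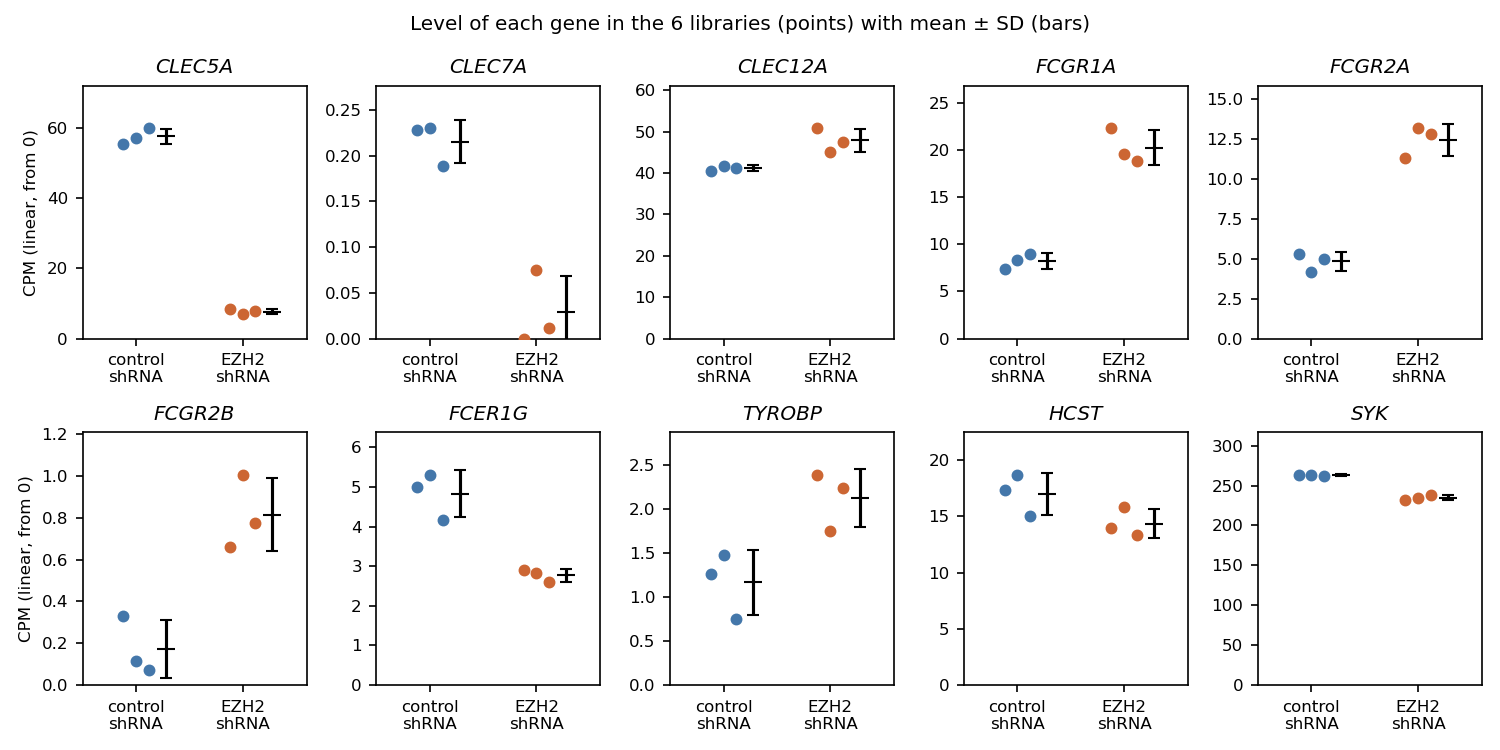
CPM of each of the 10 genes on a linear axis from 0, 1 point per library, with the mean and SD of each group beside the points. CLEC5A falls from between 55.4 and 59.8 to between 6.96 and 8.26 CPM, the Fc gamma receptors rise, and HCST is the tested gene whose groups overlap.

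CLEC5A fell more than any other tested gene of the 10. CLEC5A (MDL-1, ENSG00000258227; GRCh38 chromosome 7, 141927357 to 141947007, minus strand) is an activating lectin of myeloid cells known as a receptor for dengue virus. Its level was 55.4, 57.1 and 59.8 CPM in control libraries 3, 4 and 5 and 8.26, 6.96 and 7.81 CPM in EZH2 shRNA libraries 1, 3 and 4. All 3 knockdown libraries lay far below every control, at 7.67 ± 0.658 against 57.5 ± 2.24 CPM (SD, n = 3 each). The level was 7.48-fold lower, or -2.90 on the log2 scale (SE 0.07, adjusted p = 3.87e-15 with edgeR), and CLEC5A ranked 10 by p among all genes tested. CLEC5A lies within MGAM, a gene on the opposite strand whose reads might be mixed with it if strand was not used in counting. MGAM was at 10.1 and 10.5 CPM in the groups (log2 fold change 0.07, SE 0.11, edgeR adjusted p = 0.616). MGAM was also the only tested gene of 7 rows within 100 kb of CLEC5A.

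The other lectins behaved differently. CLEC7A (Dectin-1, ENSG00000172243; chromosome 12, 10116777 to 10130258, minus strand), the receptor for fungal beta-glucan, had 9, 12 and 8 counts in the controls and 0, 4 and 1 counts with EZH2 shRNA. These are levels near the floor. Summed over the libraries and scaled, 29 against 5 counts gave a ratio of 8.15 in favour of the controls, with an exact 95% counting interval of 3.12 to 27.0 that covers counting error only. With no expression filter the fitted log2 fold change of CLEC7A was -2.88 (edgeR adjusted p = 0.00292), and it was -4.50 without EZH2 library 3, which held 4 of the 5 counts. CLEC12A (ENSG00000172322; chromosome 12, 9951316 to 9995694, plus strand), an ITIM-bearing lectin found on leukemic myeloid cells, was at 40.4, 41.8 and 41.2 CPM in the controls and 50.9, 45.2 and 47.6 CPM with EZH2 shRNA. Every knockdown library exceeded every control, by a small amount (log2 fold change 0.22, SE 0.05, edgeR adjusted p = 0.00205). CLEC12A overlaps CLEC1B and CLEC12A-AS1 on the opposite strand, both with 0 counts in all 6 libraries, which allows up to 3 counts in each.

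Fc gamma receptor genes rose together. FCGR1A (CD64, ENSG00000150337; chromosome 1, 149782671 to 149792518, plus strand), the high-affinity receptor for IgG, had 7.34, 8.38 and 8.96 CPM in the controls and 22.4, 19.6 and 18.9 CPM with EZH2 shRNA. The lowest knockdown library was above the highest control by more than the spread within either group. The rise was 2.46-fold, or 1.30 on the log2 scale (SE 0.09, adjusted p = 4.06e-09 with edgeR). FCGR2A (CD32A, ENSG00000143226; chromosome 1, 161505430 to 161524013, plus strand), a low-affinity receptor with its own ITAM, was at 5.31, 4.20 and 5.0 CPM in the controls and 11.3, 13.2 and 12.8 CPM with EZH2 shRNA. Again no knockdown library came near a control, and the rise was 1.37 on the log2 scale (SE 0.10, adjusted p = 1.35e-08 with edgeR).

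FCGR2B (CD32B, ENSG00000072694; chromosome 1, 161663147 to 161678654, plus strand), the inhibitory Fc gamma receptor, was the scarcest of the genes tested. It had 13, 6 and 3 counts in the controls and 33, 54 and 66 counts with EZH2 shRNA, or 0.329, 0.115 and 0.0707 against 0.663, 1.01 and 0.777 CPM. The groups did not overlap, although control library 3 stood well above controls 4 and 5. The rise was 2.28 on the log2 scale (SE 0.42, adjusted p = 0.000244 with edgeR), and without control library 3 it was 3.07. FCGR3A and FCGR3B, the genes of CD16, had 2 counts and 1 count over all 6 libraries.

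Reads of these receptors cannot all be told apart from those of their copies. FCGR1A has near-identical copies on the same chromosome, FCGR1B (a pseudogene in the newer annotation, FCGR1BP) and FCGR1CP. Of the 1355 distinct 50-base windows in protein-coding FCGR1A transcripts of GENCODE v44, 66.7% also occur in transcripts of these copies and 76.0% in any other annotated gene, and 50 bases is the read length here. FCGR1B was at 5.82 ± 0.249 CPM in the controls and 13.5 ± 0.297 CPM with EZH2 shRNA, and FCGR1CP at 2.62 ± 0.0395 and 5.48 ± 0.412 CPM (SD, n = 3 each). Both copies were called higher, with log2 fold changes of 1.21 (SE 0.08) and 1.06 (SE 0.12), and how reads were split between the 3 rows is not known. Of 1079 windows of FCGR1B 100% occur in other annotated genes, and of 1078 windows of FCGR1CP 79.9%. The rows are thus not separate measurements of each copy. With the 3 rows summed into 1 gene the log2 fold change was 1.23 (edgeR adjusted p = 8.06e-11). For FCGR2B the shared part was 33.0% of 2176 windows, nearly all of it with FCGR2C. Of 2944 windows of FCGR2A 12.7% were shared with FCGR2B or FCGR2C and 42.1% with any other annotated gene. FCGR2C rose from 1.61 ± 0.143 to 3.79 ± 0.0969 CPM (a log2 difference of 1.24, SE 0.14, adjusted p = 1.67e-06 with edgeR), and FCGR2B and FCGR2C summed gave 1.38 in place of 2.28 for FCGR2B alone. CLEC5A, CLEC12A, TYROBP and HCST shared 0 such windows with any other gene.

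**Figure D2:**
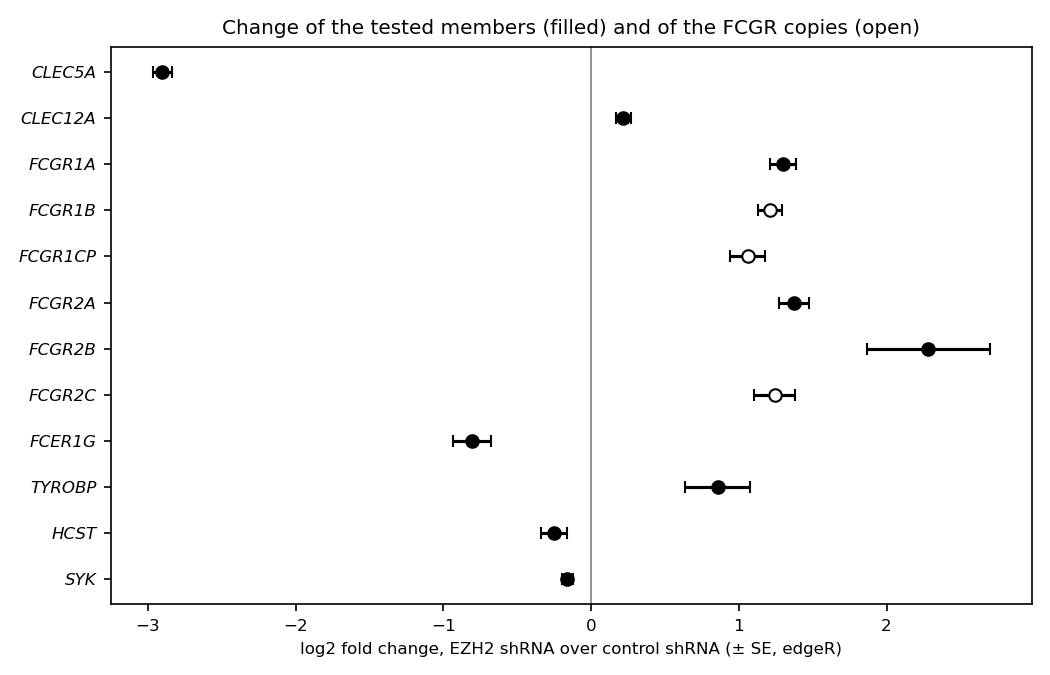
Log2 fold change of EZH2 shRNA over control shRNA with its standard error (edgeR) for the 9 tested genes of the group (filled) and for 3 copies of the Fc gamma receptors (open). CLEC5A lies at -2.90 while all 6 Fc gamma receptor rows lie above 1, and FCGR2B carries the widest error.

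The adaptors did not follow one direction. FCER1G (ENSG00000158869; chromosome 1, 161215234 to 161220699, plus strand), the partner of FCGR1A, was at 5.01, 5.31 and 4.17 CPM in the controls and 2.91, 2.82 and 2.59 CPM with EZH2 shRNA. All knockdown libraries were below all controls (log2 fold change -0.81, SE 0.13, edgeR adjusted p = 6.4e-05). TYROBP (ENSG00000011600; chromosome 19, 35904401 to 35908295, minus strand), a partner of CLEC5A, was at 1.27, 1.48 and 0.754 CPM in the controls and 2.39, 1.75 and 2.24 CPM with EZH2 shRNA. It rose (log2 fold change 0.86, SE 0.22, edgeR adjusted p = 0.00405), with the widest relative spread among the adaptors and a total of 159 counts over the controls.

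HCST (ENSG00000126264; chromosome 19, 35902480 to 35904377, plus strand) ends 23 bases from the end of TYROBP, the pair being transcribed towards each other. Its level was 17.3, 18.7 and 15.0 CPM in the controls and 13.9, 15.8 and 13.3 CPM with EZH2 shRNA. EZH2 library 3 lay above control library 5, so the groups overlapped. The fall was small (log2 fold change -0.25, SE 0.09, edgeR adjusted p = 0.027). It lost its call without control library 3 (adjusted p = 0.0851) or 4 (0.157) and without EZH2 library 1 (0.0571) or 4 (0.134), all edgeR values for HCST.

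SYK (ENSG00000165025; chromosome 9, 90801787 to 90898549, plus strand), the kinase that binds phosphorylated ITAMs, fell slightly. Its level was 264, 263 and 262 CPM in the controls and 232, 235 and 238 CPM with EZH2 shRNA. The groups were tight and separate (log2 fold change -0.16, SE 0.04, edgeR adjusted p = 0.00166).

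Levels of different genes can be compared per length, in FPKM. In the controls SYK came first at 50.4 FPKM, before HCST at 27.7, CLEC5A at 13.9, CLEC12A at 12.6, FCER1G at 5.0 and FCGR1A at 2.74 FPKM. TYROBP at 1.28 and FCGR2A at 0.908 FPKM overlapped each other, and so did CLEC7A at 0.0513 and FCGR2B at 0.0258 FPKM. With EZH2 shRNA CLEC5A dropped from the third place to the eighth, at 1.84 FPKM, below FCER1G at 2.86, TYROBP at 2.33 and FCGR2A at 2.32 FPKM. FCGR1A moved from the sixth place to the fourth, at 6.72 FPKM, and SYK, HCST and CLEC12A held places 1, 2 and 3 with 44.8, 23.2 and 14.6 FPKM. The places of the Fc gamma receptors depend on how reads shared with other genes were counted, which is not known. TYROBP and FCGR2A overlapped in this group too, while every other neighbouring pair in the order was separated in the 3 libraries.

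**Figure D3:**
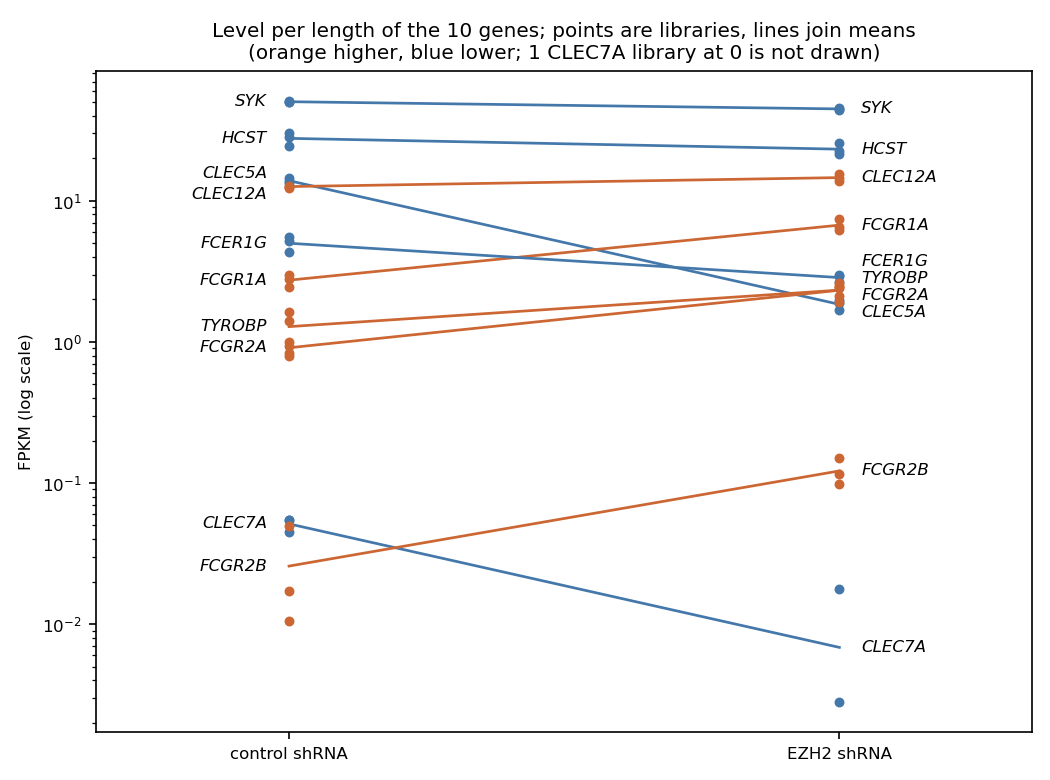
FPKM on a log axis in both groups, 1 point per library, with lines joining the group means, orange where the mean is higher with EZH2 shRNA and blue where it is lower, with the CLEC7A library at 0 not drawn. CLEC5A crosses CLEC12A, FCGR1A, FCER1G, TYROBP and FCGR2A on its way from 13.9 to 1.84 FPKM, and SYK stays on top.

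Ratios within a library, in which library size cancels, compare each receptor with its adaptor or with SYK. The ratio of CLEC5A to TYROBP was 9.62, 8.49 and 17.4 in the controls and 0.759, 0.872 and 0.767 with EZH2 shRNA, so CLEC5A went from the more abundant to the less abundant of the pair in every library. The change was -3.82 on the log2 scale, from 3.49 ± 0.554 to -0.33 ± 0.112 (SD, n = 3 each). CLEC5A to HCST went from 0.475, 0.453 and 0.592 to 0.088, 0.0655 and 0.0872, a change of -2.66. The opposite held for FCGR1A to FCER1G, at 0.471, 0.507 and 0.690 in the controls and 2.47, 2.24 and 2.35 with EZH2 shRNA. As counted, receptor mRNA thus passed that of the gamma chain in all 3 knockdown libraries, a change of 2.10 on the log2 scale. Whether the levels truly crossed is not known. Of the 50-base windows 76.0% of FCGR1A but 0.577% of FCER1G occur in other genes, and the handling of shared reads is not given.

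Against SYK, FCGR2A rose by 1.53 and TYROBP by 1.07 on the log2 scale, and FCER1G was at -0.63. Among the adaptors, FCER1G to TYROBP went from 3.73, 3.39 and 5.20 to 1.15, 1.51 and 1.09, and HCST to TYROBP from 20.2, 18.7 and 29.5 to 8.62, 13.3 and 8.79. TYROBP thus came closer in level to each of the other adaptors. The inhibitory FCGR2B relative to the activating FCGR2A was at 0.0495, 0.0219 and 0.0113 in the controls and 0.0469, 0.0611 and 0.0484 with EZH2 shRNA, and here the groups overlapped (exact two-sided permutation p = 0.3). For each of the other 8 ratios tested the groups did not overlap. Where the genes of a pair had already separated in opposite directions, this follows from their levels and adds no support. That holds for CLEC5A to TYROBP, FCGR1A to FCER1G, FCGR2A to SYK, TYROBP to SYK and FCER1G to TYROBP. The share of other gene pairs without overlap was not computed. The exact permutation p (two-sided) of these 8 ratios was 0.1, below which 3 against 3 libraries cannot go. It was 0.112 after Benjamini-Hochberg adjustment over the 9 tested of 10 planned ratios. CLEC7A to SYK, the tenth, was not tested because CLEC7A had 0 counts in a library.

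**Figure D4:**
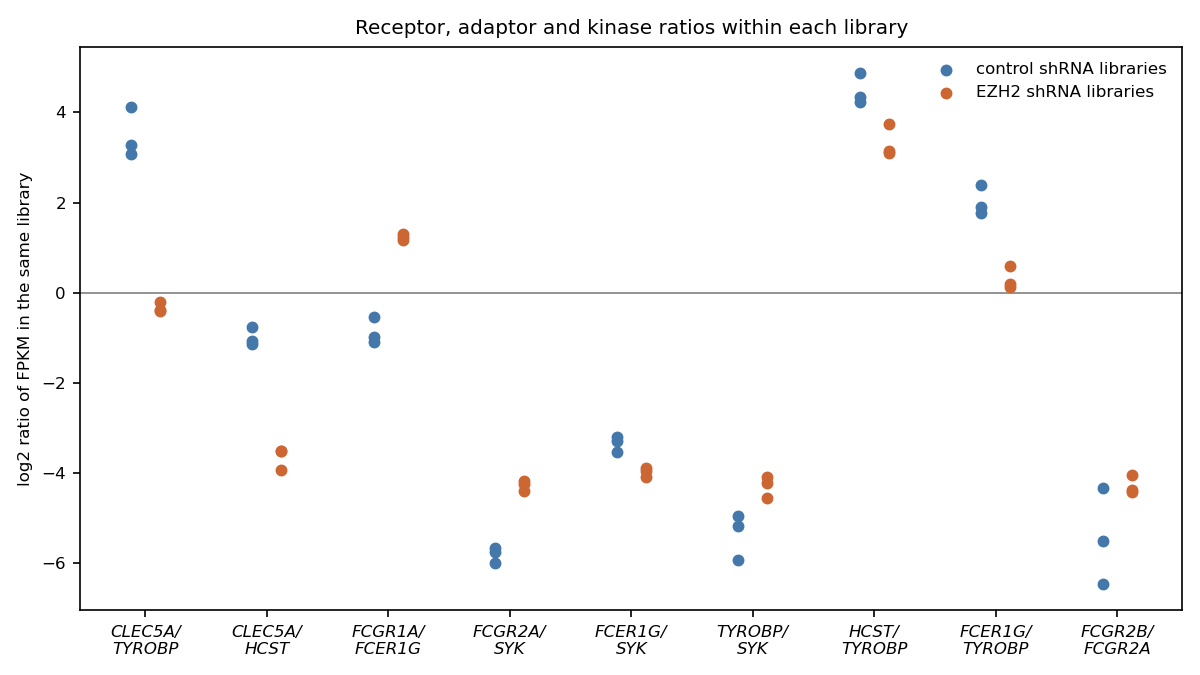
Log2 ratio of the FPKM of 2 genes in the same library, with control libraries in blue and EZH2 shRNA libraries in orange. CLEC5A over TYROBP drops from 3.49 to -0.33 and FCGR1A over FCER1G rises from -0.87 to 1.23, and only FCGR2B over FCGR2A overlaps between the groups.

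Neighbouring genes within 100 kb were read for position, beside 23.8% higher and 22.9% lower among all genes tested. Of 10 tested around FCGR1A 1 was higher and 2 were lower, and of 6 tested around FCGR2A, as of 6 around FCGR2B, 2 were higher and 4 were not called. The copy FCGR2C, which may hold reads of both genes, was counted among the higher at both loci. Near FCGR2A, HSPA6, a heat shock gene 526 bases away, rose from 0.475 to 0.972 CPM (a log2 difference of 1.03, SE 0.27, adjusted p = 0.00452 with edgeR). FCRLB, an Fc receptor-like gene 42908 bases beyond FCGR2B, rose by 0.85 (SE 0.16, edgeR adjusted p = 0.000265). Around FCER1G, 3 of 11 tested genes were higher and 2 lower, close to the shares among all genes, among them TOMM40L at -0.35 and B4GALT3 at 0.24. Of 7 tested around TYROBP 2 were higher and 2 lower, and of 7 around HCST 3 were higher and 1 lower, TYROBP and HCST being counted as neighbours of each other. LRFN3 and KIRREL2 were among the higher at both, by 1.10 and 1.53. HCST starts 176 bases from the divergent gene AD000864.1 (NFKBID), an inhibitor of NF-kB, which was at -0.28 (SE 0.09, edgeR adjusted p = 0.0157). That call of AD000864.1 was lost under 6 of 17 alternatives, among them without control library 3 (edgeR adjusted p = 0.0642) or 5 (0.0666). No gene within 100 kb of SYK was tested.

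Other genes of the same signalling pathway were read from 7 lists, beside 23.8% higher, 22.9% lower and a median of 0.01 over all genes tested. Of 6 tested genes in the list of other Fc receptors 4 rose and 1 fell, the rises being those of FCRLB and of the 3 FCGR copies given above, and the cytosolic antibody receptor TRIM21 fell from 36.5 to 26.1 CPM (-0.48). TRIM21 lies on chromosome 11, where the median of all expressed genes was -0.27. A list of receptors that use DAP12, DAP10, the gamma chain or an ITAM of their own split into 4 higher (30.8%) and 6 lower (46.2%) of 13. TREML2, which fell by 1.14 on the log2 scale, stood on that list although it is not known to use these adaptors and has no ITAM, and without it 4 were higher and 5 lower of 12. The median of the list was -0.08 with TREML2 and 0.28 without it. SIRPB1, a DAP12 partner, fell by 0.52, while CD247, the zeta chain, rose by 1.09. CLEC4D, a lectin that signals through the gamma chain, had 0, 4 and 0 counts in the controls and 31, 36 and 50 counts with EZH2 shRNA (edgeR adjusted p = 1.69e-05). CLEC4D passed the expression filter through the EZH2 shRNA libraries alone, so its test could hardly give a fall.

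ITIM-bearing receptors held 7 rises (46.7%) and 2 falls (13.3%) among 15, with a median of 0.19. SIGLEC6 rose from 0.689 to 3.40 CPM (2.32), CD300LF by 1.82, CD72 by 1.88 and SIGLEC10 by 0.57 on the log2 scale. CD72 (31 and 157 counts over the groups) and LILRB2 (33 and 117), both among the 7 rises, were scarce in the controls. Their level with EZH2 shRNA helped them into the test, so a fall could hardly have been called. With the filter of 1 CPM in 3 libraries 5 rose. Among genes of the lectin cluster on the short arm of chromosome 12, which also holds CLEC7A and CLEC12A, 4 of 7 rose and 3 did not pass. CLEC2D was at 0.75, CD69 at 0.17 and the ITIM lectin CLEC12B at 0.56. The remaining rise was that of CLEC4D, with the limit of the expression filter given above. CLEC4D was also counted in the list of DAP12, DAP10, gamma chain and ITAM receptors, and CLEC12B among the ITIM-bearing receptors.

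Below the receptors, the tested kinases of the SRC and TEC families, with CSK, counted 2 rises (22.2%) and 5 falls (55.6%) of 9 (median -0.20). FYN fell from 43.1 to 18.7 CPM (-1.21, SE 0.05, edgeR adjusted p = 1.79e-11), FGR was at -1.19 and BTK at -0.29, while YES1 was higher by 0.23. Adaptors and effectors below SYK counted 6 rises (20%) and 11 falls (36.7%) of 30, with a median of -0.06, near that of all genes. Among them were the phospholipase PLCG2 at -0.59, the adaptors LAT2 at -0.57 and GAB2 at -0.98, and the transcription factor NFATC1 at 1.20. GAB2 lies on chromosome 11, where the median of all expressed genes was -0.27.

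Of the phosphatases and other genes that restrain ITAM signalling 12 of 17 fell (70.6%) and 1 rose (5.88%), with a median of -0.48. INPP5D (SHIP1), the lipid phosphatase recruited by FCGR2B, fell from 185 to 115 CPM (-0.69, SE 0.04, edgeR adjusted p = 4.06e-10), the ubiquitin ligase CBL by 0.88 and the phosphatase gene UBASH3B by 0.75 on the log2 scale. PTPRC (CD45), which removes inhibitory as well as activating phosphates from SRC-family kinases, was at -0.59. Of the ITIM-binding phosphatase genes, PTPN11 was lower at -0.23 and PTPN6 was at -0.03 without a call (edgeR adjusted p = 0.511). Of the 12 that fell 6 lie on chromosomes 2 and 11, where the median of all expressed genes was -0.29 and -0.27. INPP5D, CBL and UBASH3B are among these 6. Their smallest falls under any alternative processing were -0.40, -0.61 and -0.48. With chromosome medians removed 11 were lower and 1 higher, with a median of -0.35.

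**Figure D5:**
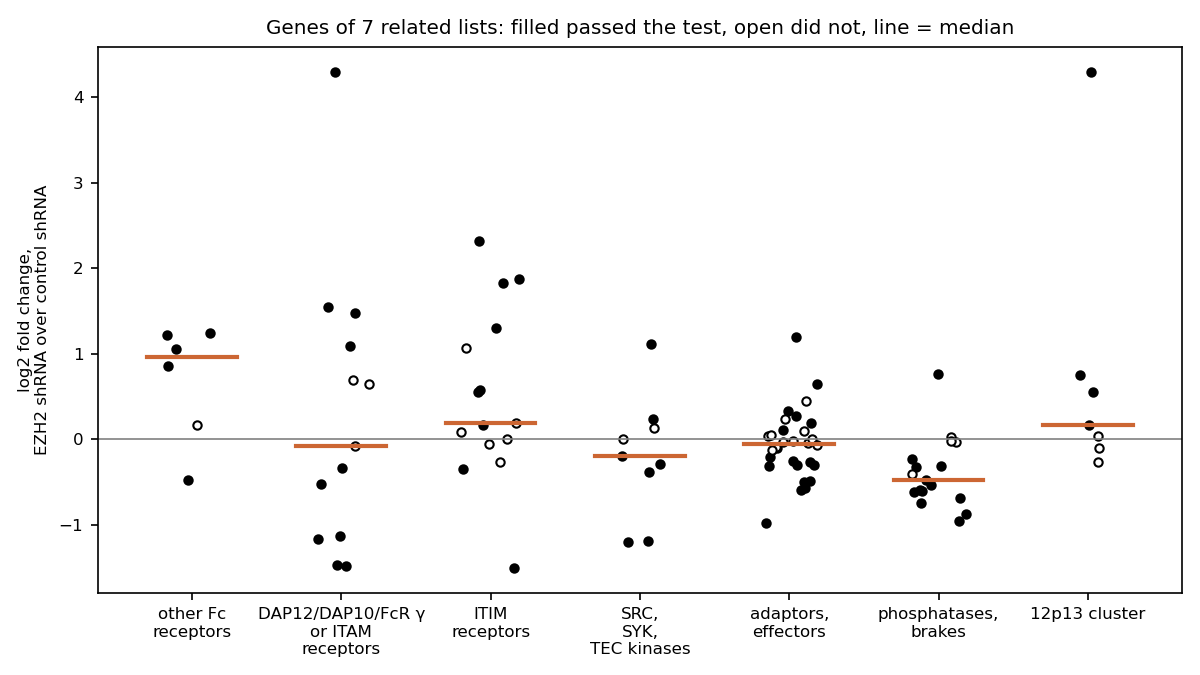
Log2 fold change of the tested genes of 7 lists related to the receptors, filled where the gene passed the edgeR test and open where it did not, with the median as a line. The medians are 0.96 for other Fc receptors and -0.48 for phosphatases and other brakes, and the remaining 5 lie between -0.20 and 0.19.

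Several of these genes are expressed by other blood cells, and in a bulk sample more cells of a type and more RNA per cell cannot be told apart. The marker counts below stand beside 23.8% higher and 22.9% lower among all genes tested. Monocyte and macrophage markers summed to between 0.537 and 0.613 CPM in the controls and between 1.29 and 1.72 CPM with EZH2 shRNA, with 2 of 10 tested and both higher (CSF1R and VSIG4), C1QA, C1QB and MARCO at 0 counts, and CD14 at 7 counts in each group. CSF1R (14 and 162 counts over the groups) and VSIG4 (25 and 84) were scarce in the controls, and their level with EZH2 shRNA helped them into the test. VCAN, not tested, went the other way with 26 and 19 counts. Mature neutrophil markers, of which 2 of 8 were tested with neither past the threshold, summed to between 26.9 and 32.0 and between 28.4 and 32.5 CPM. Nearly all of that sum was CSF3R, at a mean of 27.6 and 29.4 CPM. Among the untested neutrophil markers, CEACAM8 had 22 and 0 counts, LTF 2 and 34 counts, and MMP8 none. Eosinophil markers summed to between 136 and 138 CPM and to between 328 and 350 CPM, with 6 of 8 tested and all 6 higher. Nearly all of the control sum was RNASE2, at a mean of 131 CPM, against 192 CPM with EZH2 shRNA. Mast cell and basophil markers, nearly all of the sum being GATA2, were between 123 and 125 CPM and between 428 and 452 CPM, with 3 of 4 tested genes higher, while FCER1A, which needs FCER1G on those cells, had 0 and 3 counts. CPA3, among those higher, had 2 and 92 counts and was tested because of its level with EZH2 shRNA. The part of these marker changes in the receptor and adaptor levels was not tested.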

How the data were processed

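Messenger RNA of 6 HL-60 libraries went through a strand-preserving library kit and was read from one end over 50 bases, per the labels' protocols. The authors deposited raw counts per gene and FPKM values. Per the submitters' processing notes the tools were DESeq2 1.24.0 under R 3.6.1, STAR 2.5.2b and Picard 2.18.24, on GRCh38 (hg38), their roles and order not being recorded. For the counting program, its annotation, its strand setting and its treatment of reads with several matches, nothing is given in the sources used here. The FPKM table the authors deposited is a rescaled form of the counts, returning a whole-number length (tolerance 0.001) for 29060 of 29060 genes, and is not an independent measurement.

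Of 58884 rows 16859 passed filterByExpr of edgeR 4.0.16 (R 4.3.3) and were tested with its quasi-likelihood test, TMM factors, robust dispersion, a design with group alone, and Benjamini-Hochberg adjustment over all of them. Log2 fold changes compare EZH2 shRNA with control, with SE from the F statistic. CPM is given as mean ± SD over 3 libraries. Ratios use FPKM with no pseudocount and an exact permutation test. Alternatives used limma 3.58.1 and DESeq2 1.42.0. Within each group, libraries were further apart than counting alone gives (chi-square per degree of freedom from 3.18 to 17.3). The 10 genes, the lists, and the rule for naming genes (the 10, their copies, up to 4 genes by p in each list, and neighbours within 100 kb, at most 3 by p) were chosen with earlier results of these data known. PTPN11, PTPN6 and single marker genes were named after their values were seen. The interval for CLEC7A and the floors hold for counting error alone, and the labels name no molecular identifiers that would mark PCR copies.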

Additional observations from a re-analysis of the deposited data

How the results depend on the processing

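Of the 9 tested genes, CLEC5A, CLEC12A, FCGR1A, FCGR2A, FCGR2B, FCER1G and SYK kept their direction and their call under every alternative that tested them, among them DESeq2, other scalings, other filters, FPKM fits, chromosome medians removed and each library left out. TYROBP lost its call on unfiltered log2 of FPKM + 1 (adjusted p = 0.0616), and HCST on log2 of FPKM + 1 with and without the filter (0.0781 and 0.173) and of FPKM + 0.1 (0.0756) besides the 4 left-out libraries named above. Leaving out single libraries gave 5 higher and between 3 and 5 lower, with between 3435 and 3838 of all genes higher and between 3364 and 4097 lower. FCGR2B had too few counts for the filter of 1 CPM in 3 libraries, which left 4 higher. The ratio of FCGR2B to FCGR2A reversed to -0.44 with 0.1 added to each FPKM, which is above every control level of FCGR2B, and ranged from 0.65 to 1.72 with single libraries left out. With the filter of 1 CPM, 1 of the gamma chain, DAP12 and DAP10 receptors and 1 kinase rose, since weak genes were not tested, and unfiltered FPKM called 1 gene of the chromosome 12 cluster lower. Leaving TREML2 off its list, an alternative chosen after seeing the data, gave 4 higher and 5 lower and turned the median from -0.08 to 0.28. CLEC4D was fitted at 4.30 and at 8.08 without control library 4, the only control with counts. The numbers 3 and 4 occur in the titles of both groups and are not said to pair libraries. Deviations from the group mean were hardly correlated between same-numbered libraries (r of 0.0577 and 0.0586) or between differently numbered ones (-0.0491 and -0.0325). A fit with these numbers as a replicate block drew its group difference from libraries 3 and 4 of each group alone. Control library 5 and EZH2 library 1, without a same-numbered partner, added nothing to it. In that fit TYROBP was at 0.54 in place of 0.86 (edgeR adjusted p = 0.0447), HCST at -0.32, and 5 genes stayed higher and 4 lower. Depth limits CLEC7A and FCGR2B most, with 29 and 22 counts over the controls.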
